A study of Drosophila melanogaster and Drosophila arizonae and Drosophila mojavensis with 18 samples.

Results

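Expression of 8 genes of nutrient-regulated peptide hormone signalling was measured in whole larvae of *D*. *melanogaster* in the third instar: the hormone genes *Akh*, *CCHa2*, *upd2*, *NPF*, *sNPF*, *Dh44* and *Lk*, and *AkhR*, the receptor of the *Akh* product. They were taken by FlyBase symbol from a table of 17239 genes, and all 8 were found. A gene whose deposited values averaged under 10 over the 6 libraries was treated as too low to read, which left 7 genes for the comparisons. Stocks were kept on banana-opuntia medium, and larvae were hatched from eggs collected in yeasted chambers and moved early in the third instar to 1 of 3 diets of sucrose and yeast for 24 h. The diets were HPLS (high protein, low sugar), EPS (equal protein and sugar) and LPHS (low protein, high sugar), so sugar rose and yeast fell along this order. Each diet had 1 library of replicate set S2 and 1 of replicate set S1. The larvae came from 2 isofemale strains, Iso-SD1 and Iso-SD3, as many as there are replicate sets. Neither the labels nor the methods tie S2 or S1 to a strain, so strains, repeat cultures and library batches cannot be told apart. The p-values below measure only the spread between these libraries, which may be technical. Neither the sex of the larvae nor any genetic change beyond the stocks is given in the labels.

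These hormones carry information on food between the organs of the fly. AKH, the counterpart of glucagon, is released by the corpora cardiaca of the ring gland and acts through AkhR on the fat body, the storage organ, to mobilise glycogen and lipid. CCHamide-2 and Upd2 are made by fed fat body or gut cells and signal to the brain, where they promote the production or release of insulin-like peptides. NPF, sNPF, Dh44 and leucokinin are made by neurons, and some of them also by endocrine cells of the gut, and they act on feeding, growth and water balance.

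The deposited values are fragment counts that the processing of the authors had multiplied by 1 step per library, and the values of all 8 genes in all 6 libraries came out as whole multiples of that step within 0.01 steps. The libraries held 13219687 to 32807697 fragments, and the deepest was S2 HPLS. That library stands apart, since the larval serum protein genes *Lsp1beta* and *Lsp2* are listed at 0 in it and are among the abundant genes of the other 5 libraries. For S2 HPLS the paper lists clearly more mapped reads than the fragments recovered here, while for the other 5 libraries the numbers are close. The cause of the zeros was not tested. TMM scaling was then applied across the libraries, and the scaled values are the normalized values given below. Differences are on the log2(normalized value + 1) scale, which understates changes of low genes. They were tested with limma over 12324 genes, with the Benjamini-Hochberg adjustment over all of them and a threshold of 0.05.

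The level of the 8 genes per kb of exon spanned a wide range in whole larvae. *CCHa2* was the most abundant, with a mean of 888 normalized units per kb and a range over the 6 libraries of 583 to 1281. *AkhR* followed with a mean of 362 (224 to 475) per kb. The ranges of these genes did not overlap each other or those of the other 6. On the same scale *Lk* averaged 89.6 (55.5 to 115.1), *Akh* 81.8 (31.0 to 152) and *NPF* 56.4 (42.7 to 71.3), and the ranges of these neighbours overlapped. *Dh44*, with 32.1 (29.96 to 33.9), and *sNPF*, with 31.8 (25.9 to 37.9), overlapped each other and lay below *Lk* and *NPF*, while *Akh*, at 98.1 to 152 in S2 and 31.0 to 44.3 in S1, reached down to their range in S1 only. Among 12112 tested genes with an annotated exon length, 87.8% had a lower mean level per kb than *CCHa2* and 76.1% a lower one than *AkhR*. The shares below the other tested genes ran from 20.1% for *sNPF* to 42.6% for *Lk*. The receptor for AKH was thus measured at a higher level per kb in whole larvae than AKH itself in every library.

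**Figure D1:**
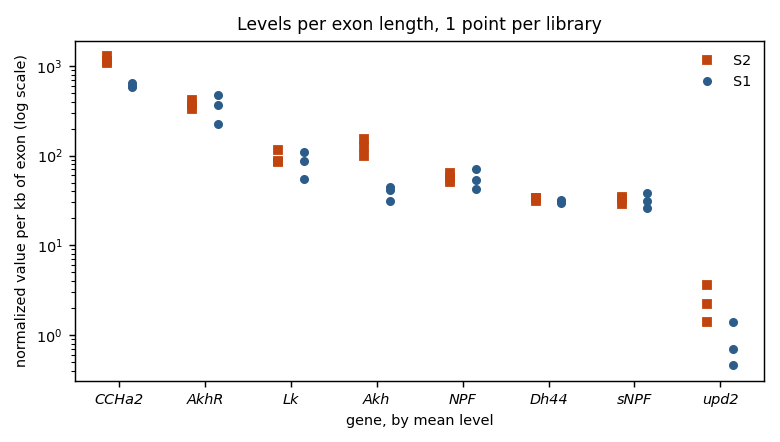
Normalized value per kb of exon (log axis) of the 8 genes, ordered by mean level, with 1 point per library (orange squares S2, blue circles S1). *CCHa2* lies at 583 to 1281 and *upd2* at 0.462 to 3.64, and S2 and S1 separate for *CCHa2* and *Akh*.

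Only *upd2*, the leptin-like cytokine gene of the fat body, was too low to read. Its deposited values averaged 3.50, and it lies on chromosome arm X from 18240654 to 18243284 (Release 6, minus strand, 1980 bp of exon). It was counted with 5, 7 and 4 fragments on HPLS, EPS and LPHS in S2, against 1, 1 and 2 fragments in S1. Its highest level per kb, 3.64, lay below the lowest level of *Akh*, *AkhR*, *CCHa2*, *NPF*, *sNPF*, *Dh44* and *Lk*. The gene did not pass the filter on low values, so no change with diet or replicate set was tested. Changes of *upd2* were not detectable at this depth, which does not show that they were absent.

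The question of the diet comparison was whether these genes change between larvae on much sugar and larvae on much yeast. In LPHS-HPLS none of the 7 tested genes passed the threshold in limma, and their log2 fold changes ran from -0.36 for *Akh* to 0.43 for *AkhR*, with a median of 0.04 beside 0.00414 over all genes tested. The background in this comparison was also 0 of 12324 genes (0%), with 179 genes (1.45%) at an unadjusted p under 0.05 and none of the 7 among them. This fit holds no term for the replicate set, so differences between S2 and S1 count as spread. For all 7 genes its intervals were wider than in the fit with such a term (the replicate block). The LPHS and HPLS libraries overlapped for all 7, while in 23.3% of all genes tested they did not. The smallest adjusted p was 0.9999, for these genes and over all genes alike. Fewer cells of a type and less RNA per cell cannot be told apart in whole larvae, here and in all comparisons below. A missed threshold does not show equal expression, and the intervals below give the sizes of change that the libraries still allow.

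**Figure D2:**
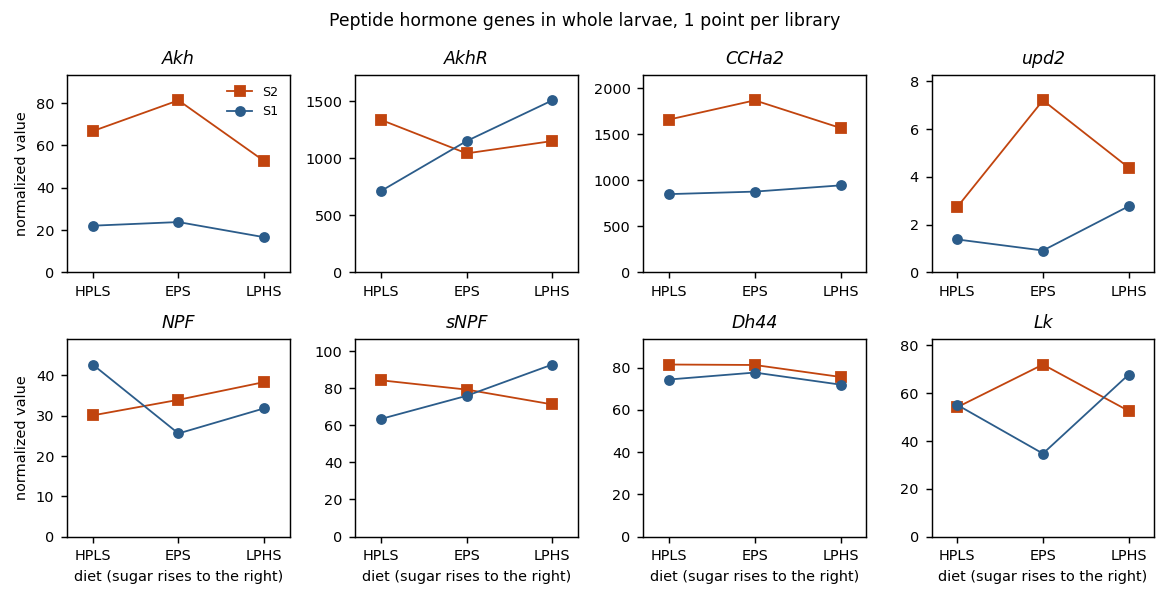
Normalized values of the 8 genes by diet, with sugar rising to the right (orange squares S2, blue circles S1, 1 point per library, each axis from 0). *Akh* and *CCHa2* are higher in S2 on each diet, while the lines of *AkhR*, *NPF*, *sNPF* and *Lk* cross.

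*Akh* (chromosome arm 3L, 4141467 to 4142070, plus strand, 536 bp of exon) had the same order of diets in both replicate sets. Its normalized values on HPLS, EPS and LPHS were 66.7, 81.3 and 52.6 in S2 and 22.0, 23.8 and 16.6 in S1. It was thus highest on EPS and lowest on LPHS in each set, but the sets lay so far apart that the diets overlapped. The change in LPHS-HPLS was -0.34 in S2 and -0.39 in S1, and the fit gave -0.36 (SE 0.90, 95% interval -2.59 to 1.87). In the fit with the replicate block the interval narrowed to -0.995 to 0.27 (limma adjusted p = 0.844). In LPHS-EPS the value was -0.56, with an SE of 0.26 and an unadjusted p of 0.0752 in the fit across all genes with the block (limma adjusted p = 0.999). Across the 12324 genes, both sets were lower on LPHS than on HPLS in 26.1%, both were higher in 27.6% and they went opposite ways in 46.1%.

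*AkhR* (2L, 6711286 to 6716186, minus strand, 3182 bp of exon) moved in opposite directions in the replicate sets. In S2 it had 1339, 1044 and 1153 normalized units on HPLS, EPS and LPHS, and in S1 it had 714, 1153 and 1510. In S1 it was thus higher at each step of sugar, and the S1 LPHS library was the highest of all 6. In S2 the HPLS library was the highest, and the S2 values lay within the range of the S1 values. The change in LPHS-HPLS was -0.22 in S2 and 1.08 in S1, and the fit over both gave 0.43 (SE 0.34, 95% interval -0.41 to 1.27, limma adjusted p = 0.9999). The slope per step of sugar differed between S2 and S1 by -0.65 (SE 0.15), with an unadjusted p of 0.00353 in the limma fit across all genes and an adjusted p of 0.434. In that test 6.73% of all genes had an unadjusted p under 0.05 and 0 genes (0%) passed the adjusted threshold, so the difference of slopes did not hold after adjustment.

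*CCHa2* (3R, 13389059 to 13395197, minus strand, 1459 bp of exon) was not called with diet, and its order of diets differed between the sets. It had 1661, 1870 and 1569 normalized units on HPLS, EPS and LPHS in S2, against 850, 878 and 945 in S1. The LPHS library was the lowest of its set in S2 and the highest in S1, and no diet stood apart. The LPHS-HPLS change was 0.04 (SE 0.51), and with the replicate block its 95% interval ran from -0.34 to 0.41.

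*NPF* (3R, 16609220 to 16611325, plus strand, 599 bp of exon), the relative of neuropeptide Y, was read from 23 to 55 fragments per library. Its normalized values on HPLS, EPS and LPHS were 30.1, 34.0 and 38.4 in S2, and 42.7, 25.6 and 31.8 in S1. In S2 it was higher at each step of sugar and in S1 highest on HPLS, so the sets went opposite ways. The LPHS-HPLS change was 0.34 in S2 and -0.41 in S1, with a fitted value of -0.04 (SE 0.37).

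*sNPF* (2L, 20027915 to 20056373, plus strand, 2447 bp of exon), a neuropeptide gene that acts on feeding and growth, also crossed. It had 84.2, 79.2 and 71.2 normalized units on HPLS, EPS and LPHS in S2, and 63.4, 75.9 and 92.7 in S1. It was lower at each step of sugar in S2 and higher at each step in S1. The slopes differed by -0.39 (SE 0.20, unadjusted p = 0.0874 and adjusted p = 0.79 in limma), and the LPHS-HPLS change over both sets was 0.15 (SE 0.29).

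*Dh44* (3R, 9638182 to 9650706, plus strand, 2402 bp of exon), the relative of corticotropin-releasing factor that acts in sugar sensing and water balance, had the narrowest range, relative to its level, of the 7 tested genes. It had 81.5, 81.3 and 75.6 normalized units on HPLS, EPS and LPHS in S2, and 74.4, 77.7 and 72.0 in S1. The LPHS library was the lowest of its set in both sets, and the LPHS and HPLS libraries overlapped. The LPHS-HPLS change was -0.08 (SE 0.24), and with the replicate block its 95% interval ran from -0.57 to 0.41.

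*Lk* (3L, 14560139 to 14560764, minus strand, a single exon of 626 bp), which encodes the tubule and feeding hormone leucokinin, had 54.2, 72.0 and 52.6 normalized units on HPLS, EPS and LPHS in S2, and 55.1, 34.7 and 67.8 in S1. EPS was thus its highest diet in S2 and its lowest in S1, while the HPLS libraries nearly coincided. The LPHS-HPLS change was 0.13 (SE 0.42). An antisense gene, asRNA:CR44843, overlaps 582 bp of this exon, and the library kit does not mark the strand, so reads of the 2 genes cannot be told apart there. The deposited values of that gene were 3.75 to 9.22, against 28.5 to 84.4 for *Lk*.

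**Figure D3:**
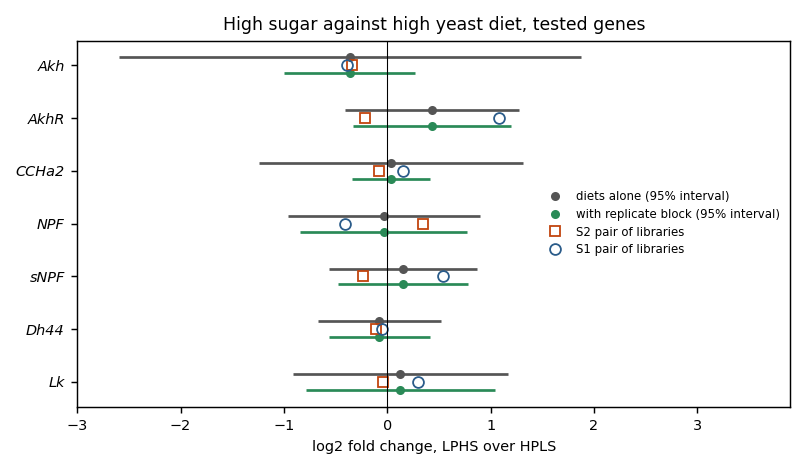
Log2 fold change of LPHS over HPLS for the 7 tested genes, from the fit of diets alone (grey) and with the replicate block (green), with 95% intervals, beside the change within S2 (open squares) and S1 (open circles). Every interval includes 0, and the S2 and S1 changes of *AkhR*, *CCHa2*, *NPF*, *sNPF* and *Lk* have opposite signs.

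The intermediate diet gave no call either. EPS-HPLS and LPHS-EPS share the EPS libraries and share the HPLS or LPHS libraries with the comparison above, so they are not independent of it. In EPS-HPLS the 7 changes ran from -0.27 for *NPF* to 0.19 for *Akh*, and 0 of 7 passed, beside 0 of 12324 genes (0%) and 42 genes (0.341%) at an unadjusted p under 0.05. In LPHS-EPS they ran from -0.56 for *Akh* to 0.27 for *AkhR*, and 0 of 7 passed, beside 0 of 12324 genes (0%) and 25 genes (0.203%) at an unadjusted p under 0.05. The slope per step of sugar ran from -0.18 for *Akh* to 0.22 for *AkhR*, and 0 of 7 passed, beside 0 of 12324 genes (0%) and 319 genes (2.59%) at an unadjusted p under 0.05. The fits with the replicate block called 0 of 12324 genes in each comparison of diets, with 941 genes (7.64%) at an unadjusted p under 0.05 in LPHS-HPLS, 314 (2.55%) in EPS-HPLS and 240 (1.95%) in LPHS-EPS. Their slope test called 6 genes (0.0487%), none of them among the 7, and had 1284 genes (10.4%) at an unadjusted p under 0.05. The EPS and HPLS libraries overlapped for all 7 genes (they did not in 12.9% of all genes tested). The LPHS and EPS libraries did not overlap for 2 of 7, *AkhR* being higher and *Dh44* lower on LPHS, beside 13.8% of all genes tested. For *AkhR* this was nearly a tie between the sets, with 1152.9 normalized units in S2 LPHS and 1152.7 in S1 EPS. In none of the 3 diet comparisons or the slope test, with or without the block, did one of the 7 genes reach an unadjusted p under 0.05.

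Between the replicate sets, in contrast, *Akh* and *CCHa2* were higher in S2, by 3.10-fold and 1.90-fold, and the other 5 tested genes did not pass the threshold. These 2 of 7 genes (28.6%) stand beside 962 of 12324 genes (7.81%) that were higher in S2 and 995 (8.07%) that were lower, 1957 (15.9%) in all. This background count moved with the libraries kept, to 632 genes, 328 of them higher, without S2 HPLS, 740 without S1 HPLS, 845 without S1 EPS, 1002 without S2 EPS, 3308 without S1 LPHS and 3440 without S2 LPHS. Calls lost without S2 HPLS below therefore stand beside fewer calls over all genes. Without further scaling 6399 genes were higher and 452 lower. The S2 libraries lay above all S1 libraries for the same 2 genes, a pattern found in 23.6% of all genes tested. The median difference of the 7 genes was 0.13, beside 0.03 over all genes tested.

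*Akh* averaged 66.9 ± 14.3 in S2 and 20.8 ± 3.74 in S1 (normalized value, SD, n = 3 each). The lowest S2 library, at 52.6, was above the highest S1 library, at 23.8. The log2 difference was 1.56 on HPLS, 1.73 on EPS and 1.61 on LPHS, and the fit gave 1.63 (SE 0.21, 95% interval 1.11 to 2.15, limma adjusted p = 0.0107). These values rest on 122, 79 and 48 fragments on HPLS, EPS and LPHS in S2, against 16, 26 and 12 in S1. The call held without each library in turn, with differences of 1.55 to 1.67 and adjusted p of 0.0119 to 0.0361.

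*CCHa2* averaged 1700 ± 154 in S2 and 891 ± 49.0 in S1 (normalized value, SD, n = 3 each). The lowest S2 library, at 1569, was again above the highest S1 library, at 945. The log2 difference was 0.97 on HPLS, 1.09 on EPS and 0.73 on LPHS, and the fit gave 0.93 (SE 0.13, 95% interval 0.62 to 1.24, limma adjusted p = 0.0119). Without the S2 HPLS library the difference was 0.90 and the adjusted p was 0.0533, so the call was lost, and *Akh* alone remained called. The counts behind *CCHa2* were 1432 to 3036 fragments in S2 and 617 to 960 in S1.

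The other 5 tested genes were not called between the sets. *AkhR* averaged 1179 ± 149 in S2 and 1126 ± 399 in S1, with a log2 difference of 0.13 (SE 0.26, limma adjusted p = 0.747) that was 0.91 on HPLS, -0.14 on EPS and -0.39 on LPHS. *Lk* differed by 0.22 (SE 0.30), *NPF* by 0.05 (SE 0.27) and *sNPF* by 0.03 (SE 0.21). *Dh44* averaged 79.5 ± 3.34 in S2 and 74.7 ± 2.87 in S1, a log2 difference of 0.09 with a 95% interval of -0.31 to 0.49. Without TMM scaling the median difference of all genes moved to 0.52, and on that scale *Akh* (2.11), *CCHa2* (1.42) and *Dh44* (0.58, adjusted p = 0.0275) passed the threshold.

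The receptors of these hormones were read next, and 1 of the 7 was called (14.3%, beside 15.9% of all genes tested). *Dh44-R2*, a receptor for Dh44 on gut and tubule cells, had 496, 452 and 472 normalized units on HPLS, EPS and LPHS in S2, against 197, 144 and 162 in S1. All S2 libraries were thus far above all S1 libraries, and the log2 difference was 1.504 (SE 0.13, limma adjusted p = 0.00388), while *Dh44* itself differed by 0.09. Without the S2 HPLS library the difference of *Dh44-R2* was 1.58 and its call held (adjusted p = 0.00334). The second Dh44 receptor, *Dh44-R1*, was low, at 1.38 to 15.4 normalized units, and was not called (0.35, SE 0.59). *CCHa2-R*, the CCHamide-2 receptor of the brain, ran from 5.48 to 17.99 and differed by -0.66 (SE 0.47, adjusted p = 0.346), so it was not called either. The Upd receptor gene *dome* (0.01), *NPFR* (0.28), *sNPF-R* (-0.05) and the leucokinin receptor gene *Lkr* (0.17) were not called. None of the 7 receptors passed in LPHS-HPLS, where *Dh44-R1* had 1.38 (SE 0.82), *Lkr* -0.54 (SE 0.24) and *NPFR* -0.26 (SE 0.45).

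Of 13 genes of the AKH pathway in the fat body, 2 were higher in S2 (15.4%, beside 7.81% of all genes tested) and 0 were lower, and the share called in either direction was near the 15.9% of all genes. *Lsd-1*, which encodes a perilipin of lipid droplets, had 7037, 7817 and 6045 normalized units on HPLS, EPS and LPHS in S2, against 3364, 3852 and 4720 in S1 (log2 difference 0.81, SE 0.18, limma adjusted p = 0.0359). *Stim*, the calcium sensor of the endoplasmic reticulum, differed by 0.51 (adjusted p = 0.0374), and the calcium pump gene *SERCA* had -0.79 (adjusted p = 0.138). The lipase genes *bmm* and *Hsl* and the kinase genes *Pka-C1* and *Pka-R1* were among those not called. With diet none of the 13 passed, and in LPHS-HPLS *SERCA* had 0.56, the glycogen phosphorylase gene *Glyp* 0.52 and *Gbeta13F* -0.31. These values come from whole larvae and are not specific to the fat body. The 3 muscle markers read below had medians of -0.87 in S2-S1 and 0.27 in LPHS-HPLS. The part of muscle in the values of *SERCA* was not tested. Of 7 genes of the Upd cytokine pathway 6 were tested, without *upd3*. Among these 1 was higher in S2 (16.7%, beside 7.81% of all genes tested) and 0 were lower. The share called in either direction was near the 15.9% of all genes. *Stat92E*, the transcription factor of the pathway, was higher in S2 by 0.60 (adjusted p = 0.0478), the receptor-like gene *et* had 0.57 (adjusted p = 0.0535) and *upd1* -0.23. Their LPHS-HPLS values were -0.57, -0.25 and 0.22 in the same order, and none passed. As given above, fewer genes were called in S2-S1 when the S2 HPLS library was left out. Without the S2 HPLS library none of *Lsd-1* (0.68, adjusted p = 0.186), *Stim* (0.48, adjusted p = 0.289) and *Stat92E* (0.44, adjusted p = 0.353) was called.

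Other hormone genes were compared in the same way, and 5 of 31 tested (16.1%, beside 7.81% of all genes tested) were higher in S2 and 0 were lower, and the share called in either direction was near the 15.9% of all genes. *Lst*, which encodes limostatin, a hormone that lowers insulin release, had 2651, 3025 and 1408 normalized units on HPLS, EPS and LPHS in S2, against 843, 721 and 696 in S1 (log2 difference 1.58, SE 0.21, limma adjusted p = 0.0111). Its S2 values were highest on EPS and lowest on LPHS, as for *Akh*, while its S1 values were highest on HPLS and lowest on LPHS. *egr*, the gene of the fat body TNF ligand Eiger, had 1358, 1229 and 1072 normalized units in S2, against 564, 538 and 496 in S1 (1.19, SE 0.11, adjusted p = 0.0046). *Gbp2* (0.92), a growth-blocking peptide gene of the fat body, *Ms* (0.68), the myosuppressin gene, and *daw* (0.59), an activin-like ligand gene, were called as well. Without the S2 HPLS library 2 of these 5 calls held, *Lst* (1.53, adjusted p = 0.0088) and *egr* (1.14, adjusted p = 0.015), and *Gbp2* (0.75), *Ms* (0.66) and *daw* (0.62) lost theirs. Calls over all genes also fell in that fit, and the differences of *Ms* and *daw* hardly moved, while that of *Gbp2* became smaller. *CCHa1*, the paralog of *CCHa2*, had 1.04 (adjusted p = 0.114). In all, 25 of the 31 differences were above 0 (80.6%, beside 52.4% of all genes tested), with a median of 0.37 beside 0.03 over all genes. In LPHS-HPLS 24 of the 31 were above 0 as well (77.4%, beside 50.7% of all genes tested, median 0.15). Of these 24, only *AstC*, *Mip*, *Dh31*, *Crz*, *Capa*, *Ms*, *Pdf*, *Orcokinin* and *daw* were higher on LPHS in both replicate sets. The rest had opposite signs in S2 and S1. Over all genes tested, both sets were higher in 27.6%. None of the 31 passed in that comparison, where *Pburs* had 0.76, *Lst* -0.59 and *Crz* 0.57. *Pburs* was low, at 2.76 to 11.1 normalized units, and its change was -0.17 in S2 and 1.68 in S1. Of 34 genes listed, *Nplp2* was not matched by symbol, and *Gpa2* and *Nplp3* did not pass the filter.

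Genes that process or release peptide hormones showed 1 call among the 7 tested of 10 listed (14.3%, beside 15.9% of all genes tested). *Cadps*, a release factor of dense core vesicles, was higher in S2 by 0.63 (limma adjusted p = 0.0295), and without the S2 HPLS library it had 0.62 and lost its call (adjusted p = 0.191). Fewer genes were called over all in that fit as well, and the difference of *Cadps* hardly moved. In the fit of all libraries the prohormone convertase gene *amon* had -0.14. The carboxypeptidase gene *svr* had 0.26 and the convertase chaperone gene *7B2* 0.50 (adjusted p = 0.0627). None passed in LPHS-HPLS, where *svr* had -0.41, *7B2* 0.40 and *amon* 0.29. *Phm* and *Pal1* were not matched by symbol and *dimm* did not pass the filter.

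**Figure D4:**
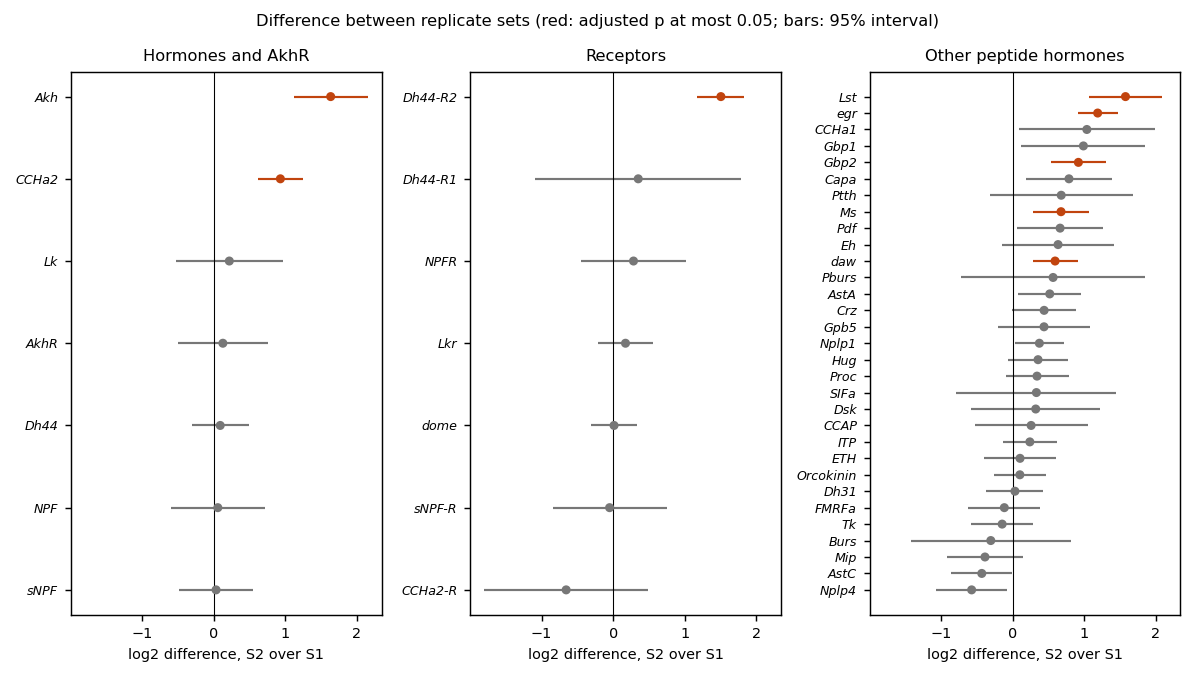
Log2 difference of S2 over S1 with 95% intervals for the 7 tested genes, the 7 receptors and the 31 other hormone genes, with genes at an adjusted p of at most 0.05 in red. Red points are *Akh* and *CCHa2* on the left, *Dh44-R2* in the middle, and *Lst*, *egr*, *Gbp2*, *Ms* and *daw* on the right.

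Among the marker lists of other tissues, only the glue genes of the salivary gland had every member called. The counts called in each list stand beside 15.9% of all genes tested that were called in S2-S1, 7.81% higher and 8.07% lower. The salivary glue genes *Sgs3*, *Sgs4*, *Sgs7* and *Sgs8*, which are switched on before the larvae pupate, were all higher in S2 (4 of 4 called), with sums of 216100, 199200 and 63260 normalized units on HPLS, EPS and LPHS in S2, against 30490, 2900 and 12240 in S1. Neuronal markers summed to 2397 to 3953 in S2 and 2004 to 2123 in S1, and *Syt1* was called higher in S2 (1 of 5 called), while *nSyb* (0.18), *elav* (-0.04), *Rdl* (-0.37) and *brp* (-0.42) were not. Without *Syt1* the neuronal sums overlapped, at 916 to 1072 in S2 and 997 to 1126 in S1. Enteroendocrine markers summed to 672 to 720 in S2 and 823 to 921 in S1, with 0 of 4 called. The glass gene *gl*, which is expressed in the corpora cardiaca and also in photoreceptors, had 80.4, 70.0 and 46.0 normalized units on HPLS, EPS and LPHS in S2, against 37.2, 16.5 and 33.2 in S1 (log2 difference 1.19, SE 0.33, adjusted p = 0.0603). Of 3 ring gland genes *dib* was higher in S2 (1.35, adjusted p = 0.043), while *sad* had 0.37 and *phtm* -0.22, and their sums overlapped (381 to 928 in S2 and 517 to 700 in S1). Of 3 haemocyte genes *NimC1* was higher in S2 (0.66, adjusted p = 0.0238), while *eater* had 0.42 and *Hml* -0.57, and their sums overlapped as well (3531 to 4856 in S2 and 4336 to 5662 in S1). Fat body markers (0 of 4 called) summed to 261100 to 926400 in S2 and 621800 to 717800 in S1, with *Lsp1beta* and *Lsp2* at 0 in S2 HPLS. The other markers of that list, *Fbp1* (146190) and *apolpp* (114920), were higher in S2 HPLS than in any other library. Without that library all 4 glue genes were still called, and *Syt1*, *dib* and *NimC1* were not. Calls over all genes fell in that fit too. Gut enzyme markers (0 of 3 called) summed to 137200 to 156500 in S2 and 130400 to 162000 in S1. Muscle markers (0 of 3 called) summed to 251200 to 479400 in S2 and 488300 to 639000 in S1. The part of these tissues, or of the stage of the larvae, in the differences of *Akh* and *CCHa2* was not tested.

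**Figure D5:**
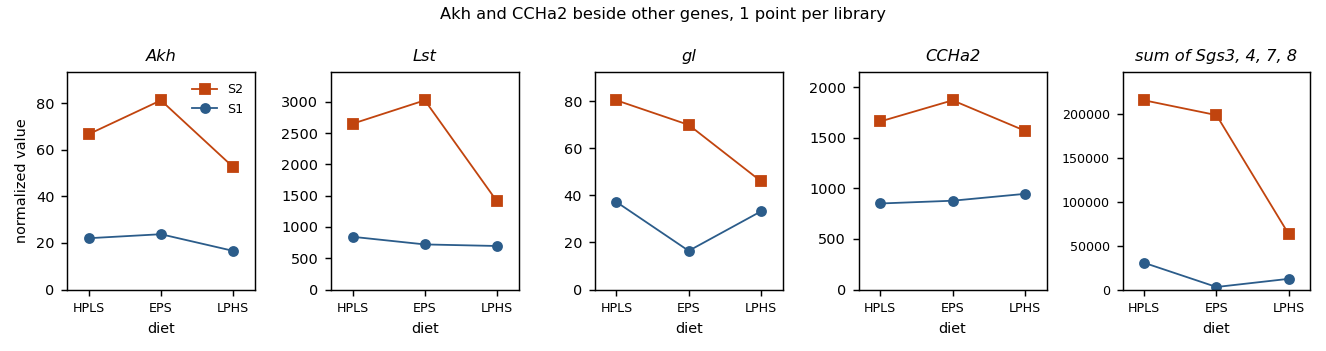
Normalized values by diet of *Akh*, *Lst*, *gl*, *CCHa2* and the sum of 4 glue genes (orange squares S2, blue circles S1, 1 point per library, each axis from 0). S2 lies above S1 on each diet in all 5 panels, and the glue sum is 63260 to 216100 in S2 and 2900 to 30490 in S1. The panels are a selection, *gl* was not called, and the enteroendocrine and muscle sums given in the text were lower in S2.

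The patterns of the genes over the 6 libraries fell into different kinds. As a description, the gene closest to *Akh* in Pearson's r of the log2 values was CG7903 (0.999), and 439 of 12324 genes had an r of at least 0.95 with it. *CCHa2* was closest to CG30036 and CG9084 (0.997 each) and to the cuticle gene *Lcp3* (0.996), with 488 such genes. For both, the 6 points form an S2 and an S1 cluster, so these coefficients largely restate the difference between the sets. *AkhR* was closest to the serpin gene *Spn28Dc* (0.999), which had 399, 351 and 366 normalized units on HPLS, EPS and LPHS in S2 and 273, 365 and 432 in S1, and only 7 genes reached 0.95 with *AkhR*. *Dh44* was closest to *Vps50* (0.997), *PCNA* (0.990) and *CycK* (0.989), with 87 such genes. *Lk* was closest to *dpr16* (0.998), *sNPF* to CG11788 (0.979) and *NPF* to CG13385 (0.969), with 16, 6 and 4 such genes. The points of each coefficient share their 6 libraries and the depth of each.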

How the data were processed

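The authors aligned paired reads of poly(A)-selected, unstranded libraries with TopHat2 and Bowtie2 to FlyBase release r6.04, ran cuffdiff2 with default settings and deposited 1 signal value per gene and library. Tool versions are not given in the sources used here. The deposited signal values are fragment counts multiplied by 1 step per library, so fragments of the 8 genes were recovered by division. Of the values above 0, 96.3 to 97.0% were whole multiples within 0.01 steps, with a wider margin for large counts. The libraries held 13219687 to 32807697 fragments, and small counts limit the precision of *Akh*, *NPF* and *upd2*.

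FlyBase identifiers were named from a gene table (16939 of 17239 matched), and positions came from the Ensembl annotation of the Release 6 assembly. Values were divided by the TMM library size relative to its mean, and genes were kept with a minimum count of 10 and a total of 15 under the rule of filterByExpr (12324 genes). They were analysed as log2(value + 1) in limma 3.58.1 (R 4.3.3) with a trend of variance on level. The planned filterByExpr, TMM and RLE steps were written out in plain R. The planned count tests (edgeR and DESeq2) were not run, because the deposited values are scaled and not all of them were whole multiples of the step. Diets were compared in 1 fit without a block, as in the methods of the study, and again with a term for the replicate number (replicate block). The slope used diet order 1, 2 and 3, the S2-S1 fit held diet and replicate number, and a fit with the product of both tested slopes. Libraries with the same number deviated from their diet means together (correlation across genes 0.708 for HPLS and EPS, 0.588 for HPLS and LPHS, 0.548 for EPS and LPHS), with the pairing taken from the S1 and S2 labels. Fits were also run on simulated counts with large changes and, for the diets, no difference between S2 and S1. That check does not cover small changes beside a difference between the sets, as in these data.

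The 8 genes and all lists were chosen with earlier results of these data known. Named genes were the 8, their receptors, every listed gene that was called, and the 3 of each list with the largest change in LPHS-HPLS and in S2-S1, and for likeness the 3 genes with the highest r. Alternatives were pseudocounts of 0.5 and 5, no filter, RLE, no further scaling, the block, only the libraries compared, no diet term and each library left out, and the slope-difference fit received the same ones after the data had been seen. After that, called list and marker genes were also refitted without S2 HPLS. The deposited tables of the other species were not used here.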

Additional observations from a re-analysis of the deposited data

How the results depend on the processing

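Of the 7 tested genes, 265 results kept their direction and their side of the threshold under the alternatives that kept all libraries compared, and 1 did not: *Dh44* in S2-S1 without further scaling (0.58, adjusted p = 0.0275). Without further scaling S2-S1 called 6851 genes, 6399 higher and 452 lower, against 1957 genes, 962 higher and 995 lower, after TMM scaling, which follows from the shift of the median of all genes to 0.521, and 2784 genes without the diet term. The slope difference called 1 gene without the filter. With the replicate block the slope on sugar called 6 genes, and the block changed no call of the 7 genes. The planned edgeR and DESeq2 fits were not run.

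Each library was left out in turn, which leaves a diet with 1 library that is assumed to vary like the others. The counts of genes called then ran from 0 to 4 in LPHS-HPLS and in EPS-HPLS, 0 to 1 in LPHS-EPS, 0 to 0 for the slope, 632 to 3440 in S2-S1 and 0 to 41 for the slope difference. *CCHa2* in S2-S1 lost its call without S2 HPLS (0.90, adjusted p = 0.0533), and *Akh* kept its call in 6 of 6 fits. *Akh* in LPHS-HPLS changed sign without S1 LPHS (0.42) and without S2 HPLS (0.39), since each then sets unlike replicate sets against each other. In all, 52 results changed sign, none of them called, and their ranges follow.

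In LPHS-HPLS the log2 values ran from -1.16 to 0.42 for *Akh*, -0.0213 to 0.86 for *AkhR*, -0.45 to 0.49 for *CCHa2*, -0.31 to 0.21 for *NPF*, -0.0565 to 0.34 for *sNPF* and -0.0737 to 0.31 for *Lk*. In EPS-HPLS the log2 values ran from -0.68 to 1.06 for *Akh*, -0.29 to 0.60 for *AkhR*, -0.44 to 0.65 for *CCHa2*, -0.12 to 0.26 for *sNPF*, -0.0360 to 0.0699 for *Dh44* and -0.64 to 0.39 for *Lk*. In LPHS-EPS the log2 values ran from -1.42 to 0.30 for *Akh*, -0.62 to 0.47 for *CCHa2*, -0.13 to 0.26 for *sNPF* and -0.27 to 0.76 for *Lk*. For the slope on sugar the log2 values ran from -0.57 to 0.21 for *Akh*, -0.20 to 0.20 for *CCHa2*, -0.11 to 0.12 for *NPF*, -0.0138 to 0.16 for *sNPF* and -0.0508 to 0.11 for *Lk*. In S2-S1 the log2 values ran from -0.28 to 0.38 for *AkhR*, -0.14 to 0.33 for *NPF*, -0.17 to 0.23 for *sNPF* and -0.22 to 0.50 for *Lk*. For the slope difference the log2 values ran from -0.43 to 0.47 for *Akh*, -0.34 to 0.0944 for *CCHa2*, -0.13 to 0.90 for *NPF*, -0.10 to 0.0556 for *Dh44* and -0.97 to 0.65 for *Lk*.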
